A study of Mus musculus with 12 samples.

Results

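The 10 immediate early genes Fos, Fosb, Jun, Junb, Egr1, Egr2, Egr3, Atf3, Ier2 and Btg2, were followed in embryonic mouse gonads labelled knockout or wild type for the Polycomb gene Cbx2. They were chosen as a family by name. Every probe set that the platform annotation assigned to one of them alone was taken, which gave 14 probe sets for all 10 genes, out of 45037 non-control probe sets and 18193 genes with a probe set of their own. No probe set of theirs was shared with another gene.

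Gonadal cells were laser-captured at E11.5 from 30 µm sections, guided by GATA4 staining and tissue form, and each of the 12 arrays held material pooled from 2 or 3 individuals. There were 3 arrays each of Cbx2 knockout (KO) XY, KO XX, wild-type (WT) XY and WT XX gonads. All embryos came from crosses of Cbx2 heterozygous mice, and 15 ng of total RNA per pool was amplified and labelled. Values are the authors' log2 expression from RMA, a method that removes background, gives all arrays 1 distribution and condenses the probes of a set into a single value. P-values measure the spread between such pools, which carry several embryos each.

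Immediate early genes are transcribed within minutes of a stimulus without new protein being made first. Growth factors and stress reach them through MAP kinases, which activate ELK factors bound beside SRF, and through CREB. Fos and Jun proteins pair as the AP-1 transcription factor, the EGR proteins are zinc finger factors, and others such as Btg2 restrain proliferation. In the mouse gonad, MAP kinase signalling through Gadd45g and Map3k4 takes part in switching on the testis-determining gene Sry.

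Several facts of the arrays bear on what follows. The brighter Cbx2 probe set was higher, not lower, in the arrays labelled KO, with a difference of 0.52 ± 0.12 in XY and 0.74 ± 0.12 in XX gonads (log2, SE). The dimmer one differed by 0.11 ± 0.12 and -0.04 ± 0.12. No source used here says where in Cbx2 the deletion lies, so these probe sets settle nothing about the genotype. KO and WT therefore stand throughout for arrays labelled so, and every direction rests on those labels. For WT samples the source field reads KO XX, against their titles and genotype field. Xist and Eif2s3y matched the labelled sex in every array. Of the gonadal markers, group means of Wt1 lay between 10.93 and 11.18, while Gata4, whose protein guided the capture, differed by -1.49 ± 0.16 in XY and -1.41 ± 0.16 in XX gonads (KO minus WT). Of all 7 such markers, 4 were lower in KO in each sex and 1 was higher in XX gonads, by the test described below. Of all genes 6% were lower in XY gonads, and 4.64% were lower and 7.28% higher in XX gonads. WT XX replicate 1 stood apart from the other WT XX arrays. Across probe sets its mean correlation was 0.988 with those and 0.994 with the WT XY arrays. Which of the WT XX arrays is unusual was not tested. The XX and averaged results of the 10 genes are therefore also given without WT XX replicate 1. So, except for Dusp5 and Jund, are those of other named genes where a call changes. The difference between the 3' and 5' Gapdh control probe sets, which grows with RNA decay or shortened amplification, averaged 4.91 ± 0.12 in KO XY and 4.13 ± 0.38 in WT XY (SD, n = 3 each, exact permutation p = 0.1, the smallest possible). It averaged 4.05 ± 0.22 in KO XX and 4.30 ± 0.45 in WT XX (exact permutation p = 0.4).

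KO and WT were first compared in XY gonads, where a testis would form. Of the 10 genes 5 passed the test and moved in both directions. Jun, a core AP-1 subunit, rose, while Egr1, Atf3, Ier2 and Btg2 fell. The other 5, among them Fos, did not pass. The test was limma's, two-sided, with p-values adjusted by Benjamini-Hochberg over all 45037 probe sets and 0.05 as the threshold. A gene is counted by its brightest probe set on average. By the same rule 11.6% of all genes passed in XY gonads, 5.58% upward and 6% downward.

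**Figure D1:**
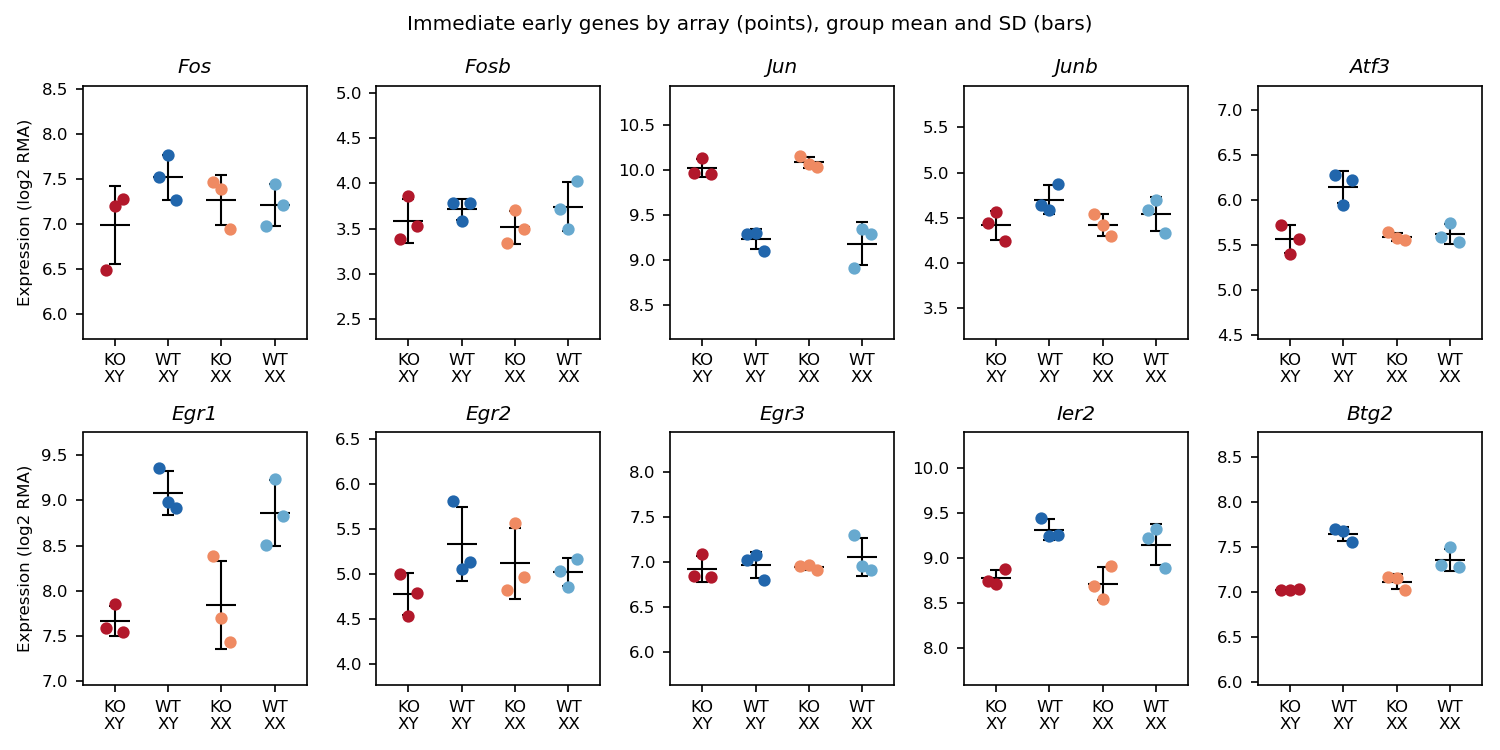
Log2 RMA expression (vertical axis, a window of equal height in each panel) of the 10 immediate early genes in each array labelled KO XY, WT XY, KO XX or WT XX. Points are arrays, horizontal bars are group means and vertical bars are SDs, n = 3. The Jun values of KO arrays (9.96 to 10.16) lie above all WT values (8.91 to 9.35), and the Egr1 values of KO arrays (7.44 to 8.38) below all WT values (8.51 to 9.36).

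Among the AP-1 genes, Jun stood at 9.97, 10.14 and 9.96 in the KO XY arrays, against 9.29, 9.30 and 9.10 in the WT XY arrays. The groups did not overlap, and the KO minus WT difference was 0.79 ± 0.13 (log2, SE, limma adjusted p = 0.00104), a 1.73-fold rise. The second Jun probe set moved the same way, with 9.38, 9.60 and 9.26 in KO XY against 8.64, 8.43 and 8.30 in WT XY, a difference of 0.96 ± 0.25 (limma adjusted p = 0.0296).

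Fos, the partner that gives AP-1 its strongest DNA binding with Jun, had 6.50, 7.20 and 7.28 in KO XY and 7.52, 7.77 and 7.27 in WT XY. Those groups overlapped, since KO XY replicate 3 lay level with WT XY replicate 3, and the difference of -0.53 ± 0.21 did not pass (limma adjusted p = 0.156). Its 95% confidence interval ran from -0.98 to -0.07. Junb, a Jun relative that forms less active AP-1 dimers, had 4.44, 4.56 and 4.24 in KO XY and 4.63, 4.59 and 4.88 in WT XY. All 3 KO XY arrays lay below the WT XY arrays, yet the difference of -0.28 ± 0.13 did not pass (limma adjusted p = 0.235). Fosb, a Fos relative, stayed between 3.38 and 3.86 in KO XY and between 3.58 and 3.79 in WT XY.

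Atf3, a stress-induced factor that can pair with Jun proteins, had 5.72, 5.40 and 5.57 in KO XY, against 6.27, 5.94 and 6.22 in WT XY. Its groups did not overlap, and it fell by 0.58 ± 0.12 (limma adjusted p = 0.0072). Thus within the bZIP genes of the set Jun was higher and Atf3 lower in the same 3 arrays.

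Egr1, the growth-response factor that gives the EGR family its name, showed the largest difference of the 10 genes. It stood at 7.59, 7.85 and 7.54 in KO XY and at 9.36, 8.98 and 8.91 in WT XY, with more than a log2 unit between the closest arrays. It fell by 1.42 ± 0.23 (limma adjusted p = 0.00108), which is 2.68-fold. Egr2, which directs hindbrain patterning and Schwann cell myelination, had 5.0, 4.53 and 4.79 in KO XY and 5.81, 5.06 and 5.13 in WT XY. The groups were apart, with a difference of -0.56 ± 0.22 that did not pass (limma adjusted p = 0.142), and its second probe set differed by -0.15 ± 0.16. Egr3, a close relative of Egr1 known from muscle spindles and lymphocytes, lay between 6.83 and 7.09 in KO XY and between 6.80 and 7.08 in WT XY. Its dimmer probe set had 2.92, 3.01 and 3.08 in KO XY and 4.13, 3.08 and 3.55 in WT XY, closest at KO XY replicate 3 and WT XY replicate 2 without overlap, and the difference of -0.58 ± 0.33 did not pass (limma adjusted p = 0.348).

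Ier2, a short nuclear protein induced by serum, had 8.74, 8.72 and 8.88 in KO XY, against 9.45, 9.25 and 9.25 in WT XY. It fell by 0.53 ± 0.13 (limma adjusted p = 0.0225) with no overlap. The Ier2 call is the least secure of the 5, since it ended without any of KO XY replicates 1 and 2 and WT XY replicates 1 and 3, at up to adjusted p = 0.105. Btg2, an antiproliferative p53 target that recruits mRNA deadenylases, had 7.03 in each KO XY array and 7.70, 7.68 and 7.56 in the WT XY arrays. It fell by 0.62 ± 0.10 (limma adjusted p = 0.00145). The second Btg2 probe set had 6.27, 6.19 and 5.81 in KO XY against 6.55, 6.38 and 6.48 in WT XY, a difference of -0.38 ± 0.18 that did not pass (limma adjusted p = 0.242).

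The groups did not overlap in 7 of the 10 genes in XY gonads, 1 higher and 6 lower in KO, where 36.9% of all genes did so (18.9% higher and 18.1% lower). The Gapdh difference was higher in every KO XY array than in every WT XY array. With it as a covariate the Egr1 and Btg2 calls held in XY gonads (log2 differences of -1.66 ± 0.33 and -0.68 ± 0.16). Those of Jun (0.57 ± 0.17, adjusted p = 0.137), Atf3 (-0.49 ± 0.18, adjusted p = 0.273) and Ier2 (-0.32 ± 0.19, adjusted p = 0.626) did not.

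Promoter sequence is shown for Jun, which was higher in KO, beside Btg2 and Atf3, which were lower in KO XY gonads. These are the 250 bases before the RefSeq transcription start (build GRCm38.p6), written 5′ to 3′ along the gene, and capitals mark the motifs found.
Jun, chr4:95052223-95052472, minus strand: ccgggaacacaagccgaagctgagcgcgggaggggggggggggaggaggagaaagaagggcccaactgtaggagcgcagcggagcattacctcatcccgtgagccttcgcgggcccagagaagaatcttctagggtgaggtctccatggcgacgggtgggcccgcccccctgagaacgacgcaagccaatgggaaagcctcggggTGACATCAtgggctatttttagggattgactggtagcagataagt
Btg2, chr1:134079156-134079405, minus strand: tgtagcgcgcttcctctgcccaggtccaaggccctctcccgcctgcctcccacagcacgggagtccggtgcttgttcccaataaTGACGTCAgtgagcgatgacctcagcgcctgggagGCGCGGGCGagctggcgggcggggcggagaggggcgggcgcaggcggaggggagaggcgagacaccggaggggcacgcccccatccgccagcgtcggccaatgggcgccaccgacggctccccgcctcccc
Atf3, chr1:191183334-191183583, minus strand: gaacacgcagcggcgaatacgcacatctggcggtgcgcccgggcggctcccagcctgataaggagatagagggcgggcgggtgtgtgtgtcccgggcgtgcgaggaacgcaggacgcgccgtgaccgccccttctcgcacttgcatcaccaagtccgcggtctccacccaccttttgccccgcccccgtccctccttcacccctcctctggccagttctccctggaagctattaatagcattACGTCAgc

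Windows from 250 bases before to 50 after the start were in the table for 7 of the 10 genes, not for Egr1, Egr3 and Ier2. Both strands were searched for the cyclic AMP response element TGACGTCA and its half-site TGACGT (which lies inside the full element), for the AP-1 sites TGANTCA and TGACATCA, for the EGR site GCGNGGGCG and for the SRF-binding CArG box. Over all 32851 windows these were held by 1.79%, 7.51%, 7.81%, 3.62%, 5.55% and 1.63%. Jun held TGACATCA, the element through which AP-1 is known to act on its own gene. Btg2 held the full TGACGTCA and an EGR site, and Atf3 held the half-site, which was present in 4 of the 7 genes (with Fos and Egr2). A CArG box occurred in Egr2 alone and TGANTCA in none of the 7. The shares are per window, while the counts are per gene, and the 7 genes had 11 windows. Sequence outside the windows was not searched. These matches describe letters in the windows only.

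KO and WT were then compared in XX gonads, which carry no Y chromosome. Jun rose and Egr1 fell there too, and the other 8 did not pass, where 11.9% of all genes passed, 7.28% upward and 4.64% downward. Jun stood at 10.16, 10.07 and 10.03 in KO XX, against 8.91, 9.35 and 9.29 in WT XX. The difference was 0.90 ± 0.13 (limma adjusted p = 0.000403), and 0.76 ± 0.12 without WT XX replicate 1 (adjusted p = 0.00105). Its second probe set had 9.81, 9.29 and 9.61 in KO XX and 7.95, 9.22 and 8.99 in WT XX. The low value is that of WT XX replicate 1, and the difference of 0.85 ± 0.25 just missed the threshold (limma adjusted p = 0.0502).

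Egr1 had 8.38, 7.69 and 7.44 in KO XX, against 8.51, 9.24 and 8.83 in WT XX. The closest arrays, KO XX replicate 1 and WT XX replicate 1, came near each other without crossing. It fell by 1.02 ± 0.23 (limma adjusted p = 0.0113), and by 1.20 ± 0.24 without WT XX replicate 1 (adjusted p = 0.00649). The Egr1 call in XX ended without KO XX replicate 3 (-0.82 ± 0.23, adjusted p = 0.0561) and in a fit of the XX arrays alone (adjusted p = 0.0519).

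Ier2 had 8.69, 8.55 and 8.91 in KO XX and 9.22, 9.33 and 8.89 in WT XX. Only KO XX replicate 3 reached into the WT XX range, and the difference of -0.43 ± 0.13 missed the threshold (limma adjusted p = 0.0608). It passed under 6 of the 23 alternatives, among them 1 probe set per gene (adjusted p = 0.0455). Btg2 had 7.17, 7.16 and 7.02 in KO XX against 7.30, 7.50 and 7.28 in WT XX. The groups were apart, but the difference of -0.24 ± 0.10 did not pass (limma adjusted p = 0.169), and the second probe set gave -0.00 ± 0.18.

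Atf3 had 5.64, 5.57 and 5.56 in KO XX and 5.59, 5.75 and 5.54 in WT XX, so its groups overlapped (difference -0.03 ± 0.12). Fos had 7.47, 7.39 and 6.95 in KO XX and 6.98, 7.45 and 7.22 in WT XX, with a difference of 0.06 ± 0.21 and a 95% confidence interval from -0.40 to 0.51. Fosb, Junb, Egr2 and Egr3 had XX differences between -0.23 and 0.10, and their groups overlapped. Without WT XX replicate 1 the XX differences were -0.39 ± 0.15 for Ier2, -0.27 ± 0.11 for Btg2, -0.05 ± 0.14 for Atf3 and -0.06 ± 0.23 for Fos, none of which passed. In XX gonads the groups were apart in 3 of the 10 genes, Jun, Egr1 and Btg2, where 26.6% of all genes were apart.

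**Figure D2:**
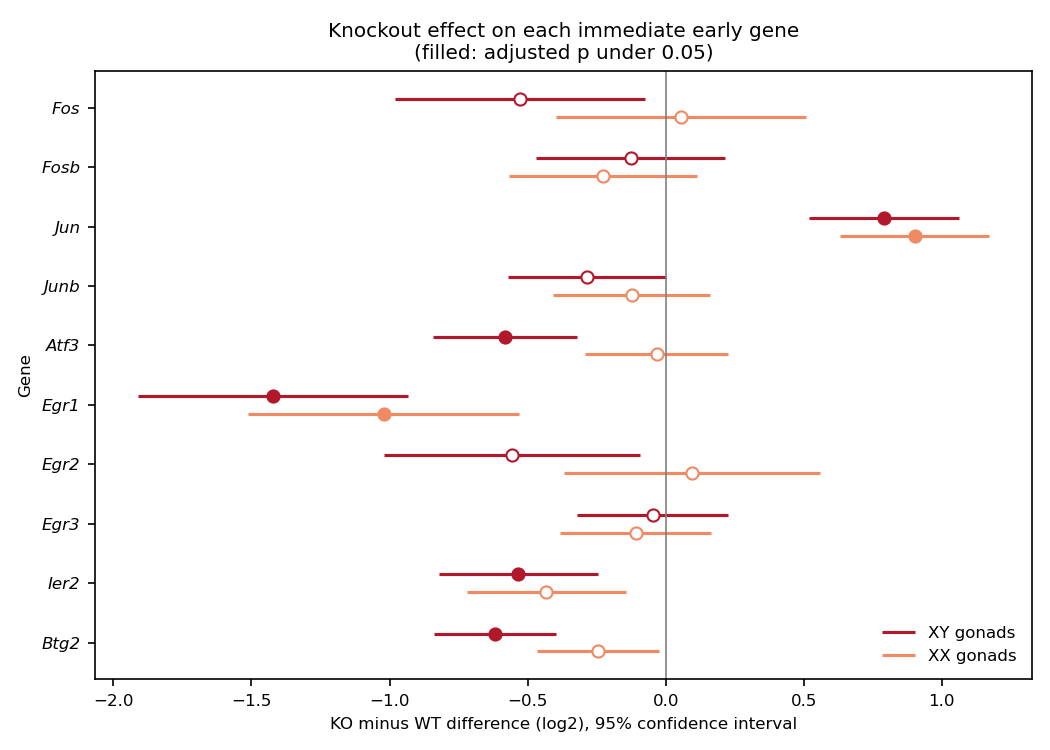
KO minus WT difference (log2, horizontal axis) of each gene in XY and XX gonads, by arrays labelled KO and WT, from the brightest probe set. Lines are 95% confidence intervals and filled points passed at adjusted p under 0.05. Jun lies to the right of 0 and Egr1 to the left in both sexes, and the other 8 genes have no filled point in XX gonads.

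Whether the KO effect differed between the sexes was tested directly as the XY effect minus the XX effect. By limma none of the 10 genes passed, where 0.0055% of all genes did. An unadjusted p under 0.05 was reached by 2 of the 10 and by 6.29% of all genes. These were Atf3, at -0.55 ± 0.17 (limma adjusted p = 0.771), and Btg2, at -0.37 ± 0.15 (limma adjusted p = 0.771). Egr2 and Fos had larger values with wider intervals, -0.65 ± 0.31 (95% interval -1.31 to 0.01) and -0.58 ± 0.30 (-1.22 to 0.06). Jun had -0.11 ± 0.18, with an interval from -0.49 to 0.27. Without WT XX replicate 1 none passed either, with -0.53 ± 0.18 for Atf3, -0.34 ± 0.15 for Btg2, -0.66 ± 0.33 for Egr2, -0.46 ± 0.31 for Fos and 0.03 ± 0.16 for Jun. A call in XY alone is therefore not shown to be a difference between the sexes.

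Averaged over both sexes, the same 5 genes passed as in XY gonads, where 21.9% of all genes passed, 12.5% upward and 9.44% downward. Jun had a mean of 10.05 ± 0.08 over the 6 KO arrays and of 9.21 ± 0.17 over the 6 WT arrays (SD), a difference of 0.85 ± 0.09 (limma adjusted p = 1.26e-05). Egr1 had 7.75 ± 0.34 in KO and 8.97 ± 0.30 in WT, a difference of -1.22 ± 0.16 (limma adjusted p = 0.00010). Ier2 (-0.48 ± 0.09), Btg2 (-0.43 ± 0.07) and Atf3 (-0.31 ± 0.09, limma adjusted p = 0.0225) were lower. The Atf3 call ended without any of KO XY replicate 2, WT XX replicate 2 and WT XY replicates 1 and 3, at up to adjusted p = 0.0644, and with the Gapdh covariate (-0.28 ± 0.10, adjusted p = 0.0879). All 6 KO arrays were apart from all 6 WT arrays in Jun, Egr1 and Btg2, as in 11.2% of all genes. The second Btg2 probe set overlapped and did not pass (-0.19 ± 0.13, limma adjusted p = 0.362). That of Jun was apart and passed (0.90 ± 0.18, limma adjusted p = 0.00269). Without WT XX replicate 1 the same 5 passed, with 0.78 ± 0.08 for Jun, -1.31 ± 0.16 for Egr1, -0.46 ± 0.10 for Ier2, -0.45 ± 0.08 for Btg2 and -0.32 ± 0.09 for Atf3. The median difference of the 10 genes was -0.23, against -0.01 over all genes.

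XY and XX gonads were also compared within each genotype. In WT none of the 10 genes passed by limma, where 0.055% of all genes did. An unadjusted p under 0.05 was reached by 2 of the 10 and by 10.2% of all genes. Atf3 had 6.27, 5.94 and 6.22 in WT XY against 5.59, 5.75 and 5.54 in WT XX, with no overlap and a difference of 0.52 ± 0.12 (limma adjusted p = 0.399). Without WT XX replicate 1 it was 0.50 ± 0.14 and passed (adjusted p = 0.0486), in a fit where 2449 probe sets passed against 25 with all arrays. Btg2 was also apart, with 7.56 to 7.70 in WT XY and 7.28 to 7.50 in WT XX (difference 0.29 ± 0.10, limma adjusted p = 0.541), where 13.2% of all genes were apart. In KO gonads none of the 10 genes passed by limma and none had an unadjusted p under 0.05, which 9.79% of all genes had, and XY minus XX lay between -0.34 (Egr2) and 0.07 (Fosb), where 0.033% of all genes passed. The order of the Atf3 means was thus KO XY 5.56, KO XX 5.59, WT XX 5.62 and WT XY 6.15, of which the first 3 differed by less than the spread between arrays. For Egr1 the order was KO XY 7.66, KO XX 7.84, WT XX 8.86 and WT XY 9.08, with neighbours of the same genotype within their spread.

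Single arrays also departed from their group across the 10 genes. WT XY replicate 1 lay above its group mean in 9 of them and KO XX replicate 3 in 1, and these arrays had the highest and lowest mean deviation over the 10 genes, 0.12 and -0.10. Egr1 had the widest spread, from 0.55 above the mean in KO XX replicate 1 to 0.40 below it in KO XX replicate 3. Fos was 0.50 below its group mean in KO XY replicate 1, an array on which Egr1 deviated by -0.07 and Atf3 by 0.15.

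**Figure D3:**
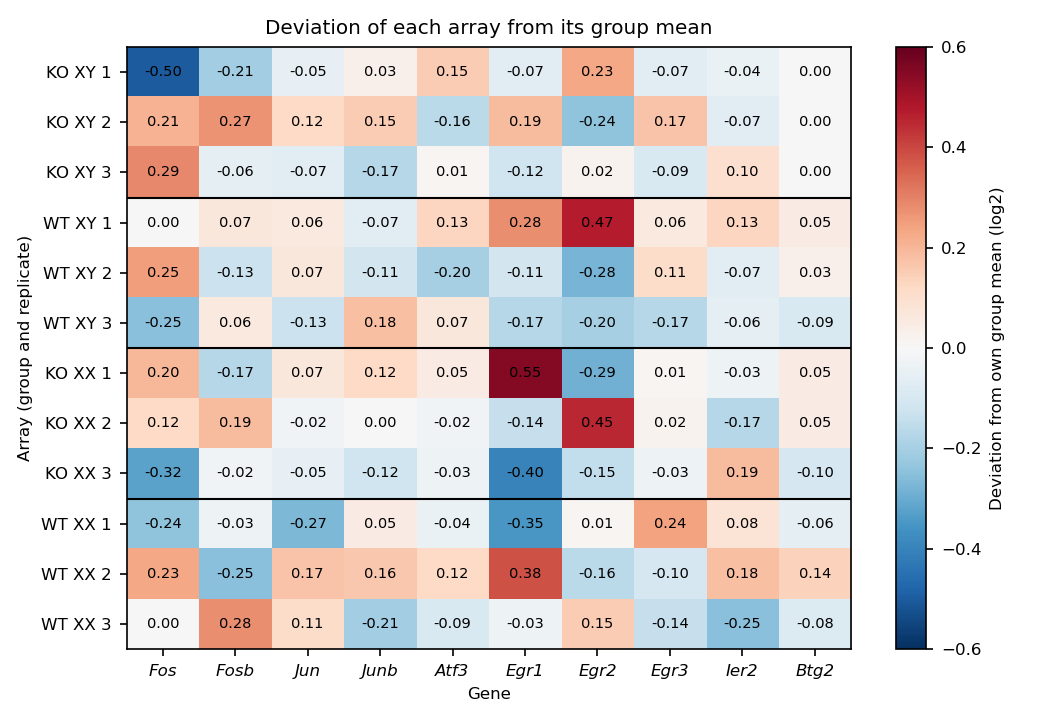
Deviation (log2, colour and printed number) of each array, by group and replicate (vertical axis), from the mean of its own labelled group for each gene (horizontal axis). Egr1, Fos and Egr2 vary most within groups, and no array is high or low in every gene, since WT XY replicate 1 is above its mean in 9 of 10.

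Other immediate early genes moved in both directions. Of 38, 5 rose and 4 fell in XY gonads, 3 rose and 4 fell in XX gonads (2 and 5 without WT XX replicate 1), and 7 rose and 7 fell on average over the sexes (7 and 8 without WT XX replicate 1). Of all genes 5.58% rose and 6% fell in XY, 7.28% and 4.64% in XX, and 12.5% and 9.44% on average, so the 3 that rose in XX are near the share of all genes. The median of the averaged difference was -0.10, against -0.01 over all genes. Fosl2, a Fos-related AP-1 subunit, rose most. It had 10.49, 10.71 and 10.43 in KO XY against 9.32, 9.49 and 9.30 in WT XY (1.17 ± 0.17, limma adjusted p = 0.000454). In XX gonads it had 10.97, 10.64 and 10.24 in KO against 8.94, 9.25 and 9.36 in WT (1.44 ± 0.17, limma adjusted p = 9.35e-05). Jun and Fosl2 were therefore both higher in every KO array than in every WT array.

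Sgk1, a kinase gene induced by serum and glucocorticoids, fell by 1.37 ± 0.21 in XY and 0.95 ± 0.21 in XX gonads. Its XY values were 7.93 to 8.65 in KO and 9.43 to 9.72 in WT. The cytokine-signalling inhibitor Socs3 rose by 0.83 ± 0.13 in XY and 0.54 ± 0.13 in XX. The orphan nuclear receptors Nr4a2 and Nr4a1 went opposite ways. Nr4a2 rose by 0.83 ± 0.16 in XY and 0.74 ± 0.16 in XX, while Nr4a1, named after its values were seen, fell by 0.79 ± 0.15 and 0.71 ± 0.15. These 5 genes, 3 higher and 2 lower in KO, passed by limma in both sexes, as Jun and Egr1 did among the 10. Socs3 no longer passed in XX gonads without WT XX replicate 1 (0.47 ± 0.14, limma adjusted p = 0.0607), while Fosl2 (1.32 ± 0.18), Nr4a2 (0.53 ± 0.12), Sgk1 (-0.84 ± 0.22) and Nr4a1 (-0.58 ± 0.15) passed. Of all genes 3.96% rose and 3.5% fell in both. Also named after their values were seen, Ccn1 and Csrnp1 rose and Klf2 and Tiparp fell in XY. Dusp5 (-0.39 ± 0.11, limma adjusted p = 0.0455) and Jund (-0.36 ± 0.11, limma adjusted p = 0.0458) fell in XX, just under the threshold. In XY Dusp5 (-0.23 ± 0.11) and Jund (0.01 ± 0.11) did not pass. Their values without WT XX replicate 1 are not given.

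**Figure D4:**
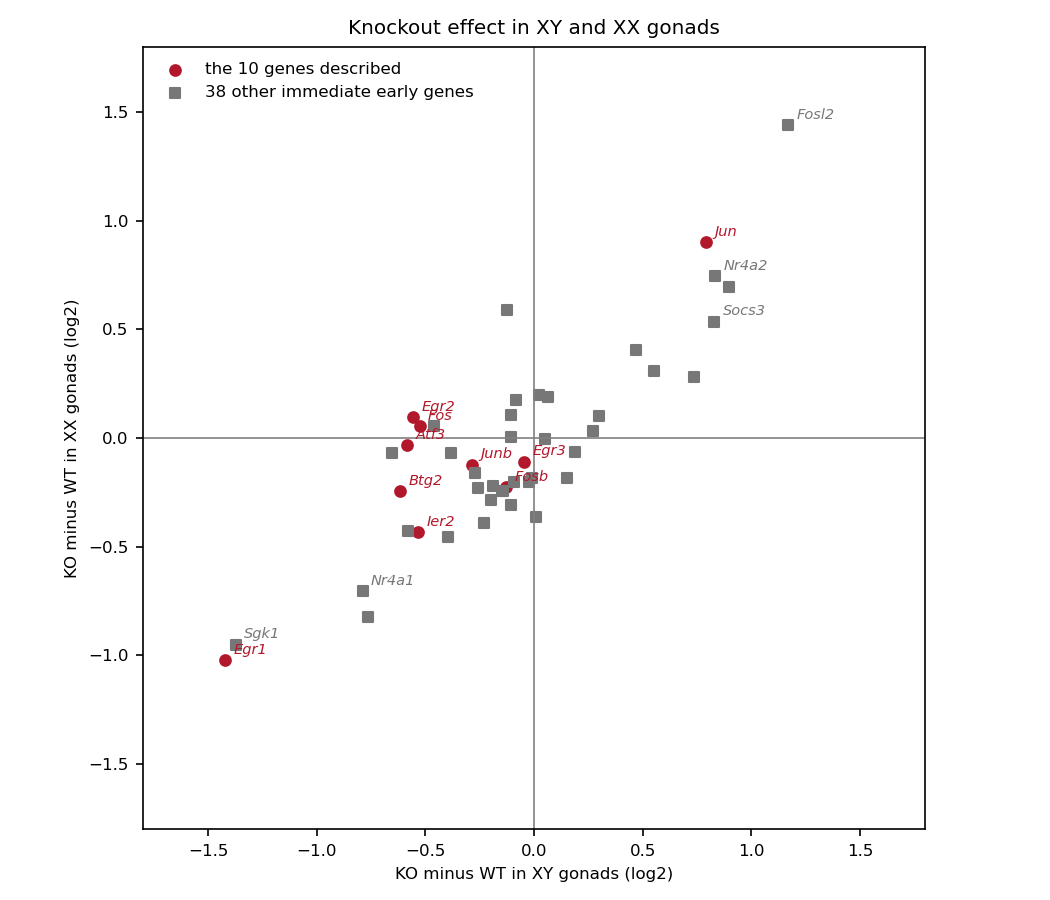
KO minus WT difference (log2) in XY gonads (horizontal axis) and in XX gonads (vertical axis), by labelled genotype, for the 10 genes described (circles) and 38 other immediate early genes (squares, named where they passed in both sexes). Fosl2 and Jun lie at the upper right, at 1.17 and 0.79 in XY gonads, and Egr1 and Sgk1 at the lower left, at -1.42 and -1.37.

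Genes that act upstream or as feedback were measured beside them, as averages over the sexes, where 12.5% of all genes rose and 9.44% fell. Of 9 genes that feed back on ERK signalling 2 rose and 1 fell. The ERK phosphatase gene Dusp4 fell by 0.71 ± 0.08, the receptor-signalling inhibitors Spry1 (0.56 ± 0.09) and Spry2 (0.60 ± 0.14) rose, and Spry4 had -0.19 ± 0.09 (limma adjusted p = 0.179). Within single sexes Spry1 passed by limma in XX only and Spry2 in neither. Dusp4 did not pass in XX gonads (limma adjusted p = 0.101), where its means were 7.38 in KO and 7.70 in WT. In XY gonads the Dusp4 means were 7.09 in KO and 8.20 in WT. Of 15 upstream genes 2 rose and 2 fell, near the shares of all genes. Srf, which binds the CArG box (0.51 ± 0.15), and Creb1, which binds the cyclic AMP element (0.67 ± 0.19), rose. The SRF coactivator gene Mrtfa (-0.60 ± 0.10) and the ribosomal S6 kinase gene Rps6ka3 (-0.52 ± 0.14) fell. Of 10 AP-1 and EGR partners, Maf (0.85 ± 0.19) and Atf2 (0.40 ± 0.13) rose and Nab1, which represses EGR proteins, fell (-0.50 ± 0.09), while Atf7 had -0.36 ± 0.12 (limma adjusted p = 0.0596). Atf2 no longer passed without WT XX replicate 1 (0.32 ± 0.12, limma adjusted p = 0.0930). With all arrays Srf, Creb1, Rps6ka3 and Atf2 passed by limma in neither sex alone. Maf and Nab1 passed in XY only, and Mrtfa in both sexes. Without WT XX replicate 1 Srf (0.37 ± 0.11), Creb1 (0.45 ± 0.09) and Maf (0.64 ± 0.10) still passed on average. Their XX differences then were 0.20 ± 0.16, 0.08 ± 0.14 and 0.19 ± 0.16, which did not pass. Mrtfa (-0.59 ± 0.15) and Rps6ka3 (-0.74 ± 0.20) passed in XX without it, and Nab1 (-0.27 ± 0.14) did not.

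Of the 3 measured relatives of Btg2, averaged over the sexes, Tob1 fell by 0.77 ± 0.10, Tob2 rose by 0.33 ± 0.08 and Btg1 had 0.13 ± 0.10 (limma adjusted p = 0.466). Tob1 passed by limma in each sex, and Tob2 in neither alone. Heat shock genes, which share stress as a stimulus, fell in 3 of 11 cases and none rose, averaged over the sexes. Of all genes 9.44% fell and 12.5% rose. Hspa1b fell by 0.86 ± 0.10, Hspb1 by 0.64 ± 0.10 and Hspa1a by 0.58 ± 0.14, while Dnaja1 had -0.21 ± 0.08 (limma adjusted p = 0.0959). Hspa1b and Hspb1 passed by limma in each sex, and Hspa1a in neither alone. The median of the 11 was -0.03, against -0.01 over all genes.

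Genes with the most similar profiles were sought for the 3 members with the largest SD over the 12 arrays, by the root mean square difference of values centred per probe set. For Egr1 (SD 0.71) these were Hsd17b11, Prr15 and Lmo2, at 0.22, 0.23 and 0.24. For Jun (SD 0.46) they were the secreted Wnt-pathway gene Dkk3, Mxra8 and the growth-arrest gene Gas1, at 0.08, 0.11 and 0.11. For Egr2 (SD 0.34) they were Fam78a, Rps16 and Cldn8, all at 0.20 or 0.21, which is not small beside that SD. Rps16 and Cldn8 also lay near the low end of the values, with group means of 3.28 to 3.40 and 3.15 to 3.44. Little likeness to Egr2 is therefore shown.

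Some markers of other cells moved with genotype as well. By the same rule 5.58% of all genes rose and 6% fell in XY, and 7.28% rose and 4.64% fell in XX. Averaged over the sexes 12.5% rose and 9.44% fell. A count of 1 in these short lists is not read as a change of those cells. Of 12 endothelial markers 7 fell in XY and 6 in XX gonads (3 without WT XX replicate 1), and 10 fell averaged over the sexes, with or without that array. None rose. Their summed level ranged from 11.14 to 11.54 in KO XY, 11.92 to 12.06 in WT XY, 11.19 to 11.79 in KO XX and 11.72 to 12.01 in WT XX (log2 of the summed linear values). In each sex 5 of 8 markers of the coelomic epithelium rose and 1 fell, with sums of 13.43 to 13.52 in KO XY, 12.59 to 12.81 in WT XY, 13.36 to 13.74 in KO XX and 12.41 to 12.74 in WT XX. Macrophage markers rose in 2 of 10 in each sex (1 in XX without WT XX replicate 1) and in 5 averaged over the sexes (6 without that array), with sums of 11.59 to 11.68 in KO XY, 10.80 to 11.16 in WT XY, 11.24 to 12.15 in KO XX and 10.84 to 11.37 in WT XX. Of 7 gonadal somatic markers 4 fell in each sex and 1 rose in XX. Germ cell markers rose in 3 of 8 in XX (4 without WT XX replicate 1) and none of 8 passed in XY, 1 of 5 mesonephros markers fell in each sex, and none of 6 erythroid markers passed. RMA values have no zero, so no marker is listed at 0, and the part of these cells in the changes of Jun, Egr1, Atf3, Ier2 and Btg2 was not tested. In such bulk samples, fewer cells of a type and less RNA per cell cannot be told apart.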

How the data were processed

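Expression was measured on Affymetrix mouse arrays in 12 pools of E11.5 gonadal cells, in 4 groups of 3 taken from sample titles and genotype labels. The deposited values are log2 values the authors computed with RMA. Tools in the submitters' processing notes are Expression Console from Affymetrix, RMA and affy, without versions. They ran from 2.37 to 15 and were used as given, without a low-value filter, and scanner files were not used. The labels give no scan date or batch, and the number of arrays limits the precision.

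Of 45101 probe sets 64 were controls, 34945 had 1 gene, 932 several and 9160 none, and 34741 of the single-gene ones matched a current gene identifier. All 45037 non-control probe sets were fitted with limma 3.58.1 in R 4.3.3 (lmFit and eBayes, 4 group means, 8 residual degrees of freedom), and p-values were adjusted by Benjamini-Hochberg over all of them within a contrast. Differences are given ± SE and group means ± SD. Counts of genes use the probe set with the highest mean. The Gapdh control difference was compared by exact permutation. The main limma fit was first tested on simulated data. The 10 genes, the lists and the tests were chosen with earlier results of these data known. All 10 genes are named, as are up to 4 genes with the smallest averaged p in each gene list (not the cell type marker lists) and, after their values were seen, 7 further listed genes that passed and the markers Gata4, Wt1 and Calb1. Alternatives changed the normalization, low-value filter, probe set choice, variance prior, array weights, block, arrays in the fit, covariate and threshold. Leaving WT XX replicate 1 out of the list counts and the other named genes was chosen after seeing the data. Promoters are from RefSeq (GRCm38.p6).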

Additional observations from a re-analysis of the deposited data

How the results depend on the processing

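Of 1348 values of the 10 genes recomputed under 23 alternatives, 1324 kept their side of the threshold, 17 lost a call, 7 gained one and none reversed a called direction. In XY gonads 5 of the 10 genes passed, 4 to 5 with single arrays left out, and 2 with the Gapdh covariate. In XX gonads 2 passed, 2 to 3 with single arrays left out, 1 in a fit of the XX arrays alone and 1 at adjusted p under 0.01. Averaged over the sexes 5 passed, 4 to 5 with single arrays left out. For XY minus XX in WT none passed, 0 to 1 with single arrays left out, and for the other sex comparison and the difference of the KO effect none passed under any alternative run. The cause of these changes was not tested.

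With the replicate number as a block 5 genes passed in XY, 2 in XX and 5 on average, as without it, and the block changed no call. Same-numbered arrays of different groups had deviations correlated from -0.18 to 0.22, over 0.1 in 4 of 18 pairs. Of 12 arrays 5 correlated best with their own number. No pairing by number was thus seen, though 3 arrays per group are too few to exclude it. Over all probe sets 4003 passed in XY, but 6937 with array weights, 1040 with the Gapdh covariate, 6139 in a fit of the XY arrays alone, 2024 at adjusted p under 0.01, and 2541 and 2645 without WT XY replicate 1 or 3. In XX 4213 passed, but 2514 in a fit of the XX arrays alone and 2013 at adjusted p under 0.01. On average 7910 passed, and 4551 at adjusted p under 0.01. With 1 probe set per gene, which tests fewer features, 2421, 2493 and 4326 passed. Without WT XX replicate 1, 10 probe sets passed for the difference of the KO effect against 3, and 30 for XY minus XX in KO against 17. Fosb and Junb lie below the low-value filter of 5 and give no value under it.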
